A study of Homo sapiens with 19 samples.

Results

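SKBR3 cells that survived the anthracycline epirubicin and were sorted as CD44hi were compared with SKBR3 cells that had received no drug. SKBR3 is an established line from a human breast carcinoma that carries extra copies of ERBB2 and has luminal features. The comparison uses 7 of the 19 arrays of the series, chosen by their titles: 4 arrays of CD44hi cells, sorted by flow cytometry on surface CD44 after 3 days in 60 nM epirubicin, and 3 arrays of untreated cells. CD44lo cells (CD44-/lo in the labels), sorted after the same 60 nM epirubicin over 3 days (4 arrays), and CD44hi cells sorted after 7 days in 1% oxygen (4 arrays), serve to show where the CD44hi survivors differ. All groups are the same line in the same medium, and each array was labelled from 200 ng of total RNA. No sort is named in the labels for cells without drug, so that drug exposure and sorting for CD44 cannot be told apart in the comparison with them. The labels speak of biological replicates without saying whether cultures were separate, so a p-value measures only the spread between these samples. Because these are bulk samples, a change in the share of cells that express a gene and a change in RNA per cell cannot be told apart.

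Epirubicin intercalates into DNA and traps topoisomerase II on it, which breaks the DNA of dividing cells. Damaged epithelial cells are known to switch on inflammatory programmes, among them NF-kB target genes and interferon-stimulated genes, which encode antiviral proteins, the machinery that loads peptides onto class I HLA molecules, chemokines and secreted defence proteins. CD44 is the surface receptor of hyaluronan and is widely used, often together with CD24, to sort breast cancer cells with stem cell features.

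Levels are signal intensities on a scale where the trimmed mean of every array is 100, and differences are given on the log2(signal + 4.2) scale, where they understate changes of dim genes. Values after ± are standard errors of log2 differences. Genes with an adjusted p under 0.05 over the 12925 genes tested are termed called. The line's own markers were high on all 7 arrays: ERBB2 lay between 2714.5 and 4195.0, the keratin KRT18 between 3103.2 and 5669.6, and the epithelial adhesion molecule EPCAM between 2067.6 and 3274.0. CDH1, which encodes E-cadherin, lay between 2.3 and 15.6. Arrays of untreated cells correlated with each other at 0.978 to 0.984 and those of CD44hi cells at 0.943 to 0.968. CD44hi array 4 stood furthest from the others, with a score of -0.7 on the first principal component against -32.8 to -20.4 for the other CD44hi arrays and -44 to -42.8 for untreated ones. Its 3′ to 5′ ratio of ACTB probe sets, a sign of RNA or labelling quality, was 1.85, against 1.24 to 1.54 on the other CD44hi arrays and 1.21 to 1.27 on untreated ones. The bacterial hybridisation controls, which are added in a fixed amount after labelling, also differed with the groups: their mean log2 signal was 9.43 to 9.69 on untreated arrays and 10.36, 9.59, 10.89 and 11.04 on CD44hi arrays 1 to 4. With that level as a covariate 104 genes were called in place of 830, and its part in the results was not tested beyond that fit.

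In all, 599 genes were higher in CD44hi survivors than in untreated cells (4.63% of those tested) and 231 were lower (1.79%), so that 6.42% were called in either direction. The rises were the larger changes. Of the 507 called genes that changed at least 2-fold, 399 were higher and 108 lower. The median difference over all genes was 0.00, and 50.3% of genes lay above 0. The 4 CD44hi arrays did not overlap the 3 untreated ones at 568 of the genes called higher and 226 of those called lower, and over all genes this held for 13% (higher) and 12.6% (lower). The count of calls was 218 when untreated array 1 was left out, 277 for untreated array 2, 450 for CD44hi array 4 and 465 for number 4 of both epirubicin fractions.

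**Figure D1:**
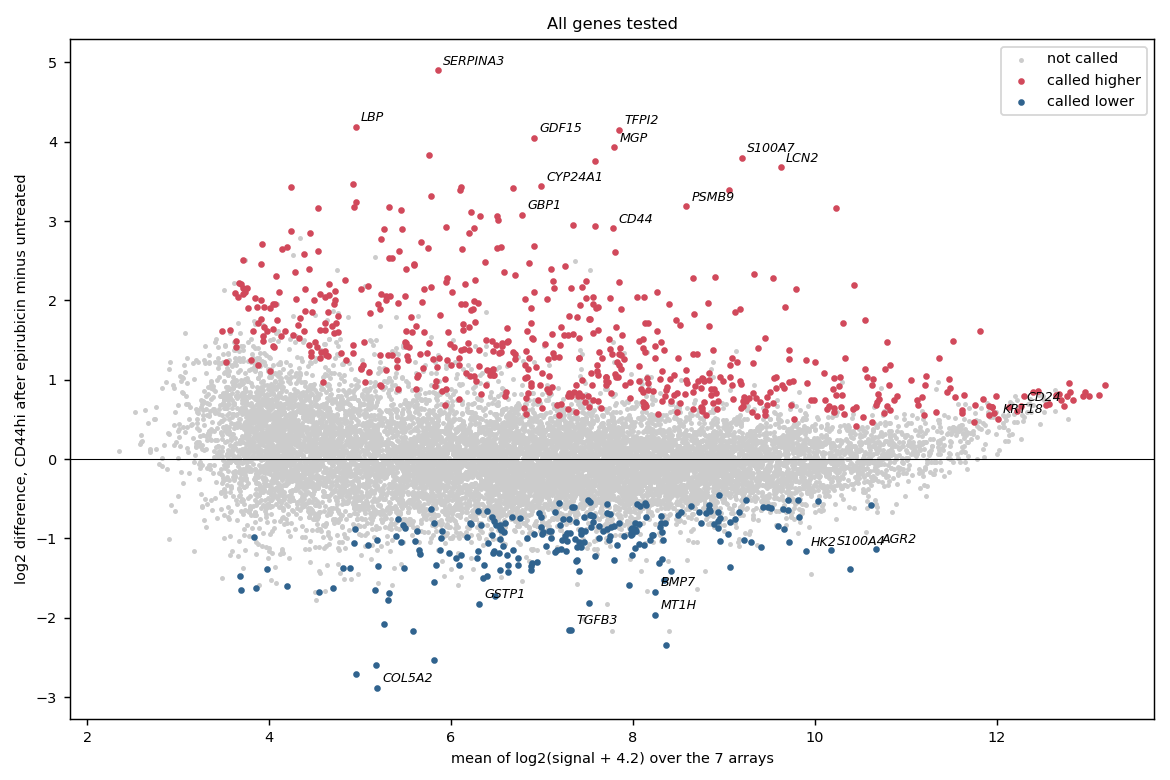
Difference between CD44hi cells after epirubicin and untreated cells (log2, vertical axis) against the mean level over the 7 arrays (log2(signal + 4.2), horizontal axis), one point per gene tested. Red points are the 599 genes called higher and blue points the 231 called lower; SERPINA3 at 4.90 and COL5A2 at -2.88 mark the ends of the range among named genes, and 97 of the 101 brightest genes lie above 0.

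The difference depended on level at the bright end. Of the 101 genes with a mean signal of 3000 or more in untreated cells, 97 lay above 0, with a median log2 difference of 0.56, 26 were called higher and 0 lower. Of the 5893 genes between 100 and 1000, 38.6% lay above 0. CD24, whose protein is read together with CD44, belongs to the bright genes: it measured 3396.9, 3555.8 and 4424.8 on the untreated arrays and 6254.2, 4008.0, 7570.3 and 6898.6 on the CD44hi arrays. The groups overlapped, and CD24 was called higher by 0.67 ± 0.20 (1.60-fold, adjusted p = 0.0447), a call that ended in 5 of 7 leave-one-out fits. After quantile normalization, which gives all arrays one distribution, the difference was 0.11 and was not called, and that of KRT18 went from 0.51 ± 0.13 (adjusted p = 0.0238) to 0.06. ERBB2 differed by 0.00 ± 0.17 (adjusted p = 0.999), with a 95% interval of -0.34 to 0.35 and overlapping groups, and by -0.40 after quantile normalization.

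The sort marker was higher in the sorted cells. CD44 measured 78.8, 52.4 and 67.0 on the untreated arrays, 216.4, 1268.3, 340.1 and 768.8 on the CD44hi arrays, and 95.2, 132.0, 59.7 and 65.2 on the CD44lo arrays of equal number. Every CD44hi array lay above every other of these arrays, but the CD44hi arrays spanned a wide range, with array 2 highest and array 1 lowest. The transcript was 7.53-fold above untreated (log2 2.91 ± 0.70, adjusted p = 0.0152). With the mean of all CD44 probe sets in place of the brightest the log2 difference was 1.7, still called. Exact permutation of the array labels (two-sided) gave p-values of 0.0286 for CD44 (the smallest possible; 0.0857 adjusted over 3 genes), 0.0857 for CD24 (0.129) and 1 for ERBB2 (1). The call of CD44 ended on leaving out untreated array 1 (adjusted p = 0.0585), untreated array 2 (0.08), CD44hi array 4 (0.0505) or number 4 of both epirubicin fractions (0.0594), and with the hybridisation covariate (0.177).

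Secreted defence and acute phase genes had the largest share of calls of the 26 lists. Of 23 tested members of the acute phase, complement and secreted defence list, 16 were called higher and 0 lower, and on 22 of them the groups did not overlap. The list's median log2 difference was 1.36, beside 0.00 over all genes. SERPINA3, a secreted serine protease inhibitor of the acute phase, had the largest rise among named genes. Its signal was 1.4, 3.5 and 9.1 on the untreated arrays and 173.3, 343.8, 212.5 and 276.0 on the CD44hi arrays. All CD44hi arrays were far above the near-floor untreated ones, a 29.8-fold rise (log2 4.90 ± 0.47, adjusted p = 1.49e-05). LBP, which binds bacterial lipopolysaccharide and was named by the size of its change, went from 3.1, 1.7 and 0.5 to 63.3, 159.7, 72.8 and 151.4. It rose 18.3-fold (log2 4.19 ± 0.57, adjusted p = 0.000201), again with no overlap.

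Bright defence genes moved in the same comparison. LCN2, which encodes the iron-siderophore binding lipocalin, measured 146.2, 139.0 and 283.7 in untreated cells and 2028.2, 1955.6, 2357.4 and 3271.0 in CD44hi cells. It rose 12.8-fold (log2 3.68 ± 0.55, adjusted p = 0.000554). S100A7, psoriasin, measured 158.5, 116.1 and 108.6 against 983.5, 2494.7, 1686.3 and 2576.3, a 13.9-fold rise (log2 3.80 ± 0.73, adjusted p = 0.00349) in which the lowest CD44hi array was array 1. STEAP4, a metalloreductase, rose 10.5-fold from 155.8, 123.1 and 127.3 to 955.2, 2240.5, 1524.3 and 1356.8. CP, which encodes the copper carrier ceruloplasmin, rose by a log2 difference of 2.95 ± 0.51, and C1S, a protease of the classical complement pathway, by 2.77 ± 0.38. For none of these genes did an untreated array reach the lowest CD44hi array. The list held 11 calls without untreated array 1, 11 without untreated array 2, 13 when number 4 of both epirubicin fractions was left out, and 4 with the hybridisation covariate.

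**Figure D2:**
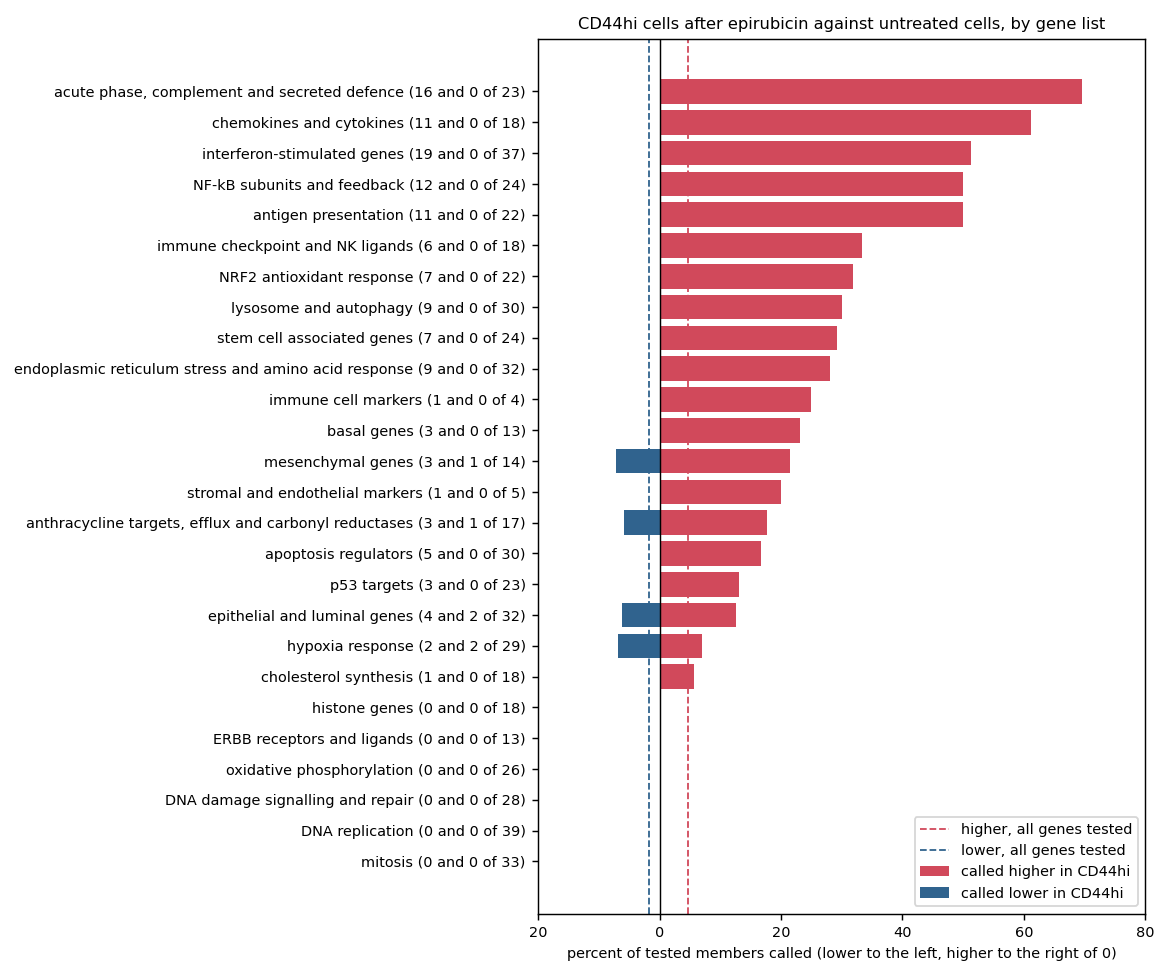
Share of the tested members of each of 26 gene lists called higher (red, to the right) or lower (blue, to the left) in CD44hi survivors against untreated cells, with the counts beside each name. Dashed lines give the shares over all genes tested, 4.63% higher and 1.79% lower; the acute phase list is longest with 16 of 23, and the mitosis, DNA replication and DNA damage lists hold 0 calls.

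Of the interferon-stimulated genes, 19 of 37 tested members were called higher and 0 lower, with a median log2 difference of 1.35, and 36 lay above 0. GBP1, a guanylate-binding protein that acts on intracellular pathogens, measured 24.3, 21.5 and 41.9 in untreated cells and 139.7, 397.8, 235.5 and 402.0 in CD44hi cells. It rose 8.48-fold (log2 3.08 ± 0.33, adjusted p = 1.92e-05), and its relative GBP2 6.30-fold (2.66 ± 0.29, adjusted p = 2.13e-05). Both calls held in every alternative run. PARP14, an ADP-ribosyltransferase, went from 6.9, 6.2 and 11.3 to 56.8, 79.5, 61.8 and 196.8 (log2 2.90 ± 0.51, adjusted p = 0.00191), with array 4 highest. IFIT2, which blocks translation of viral RNA, was near the floor without drug, at 3.8, 2.4 and 3.8, and reached 49.0, 29.9, 38.5 and 48.6 (log2 2.58 ± 0.50, adjusted p = 0.00389). TRIM22, an antiviral ubiquitin ligase, rose by 2.02 ± 0.32. The groups did not overlap at 29 of the 37 genes. The list held 13 calls without untreated array 1, 14 without untreated array 2 and 4 with the hybridisation covariate.

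Promoter sequence was read for these genes because many of them moved together. The promoter windows of RefSeq (GRCh38.p14) cover 250 bases before to 50 after each start site. The core of the interferon-stimulated response element, GAAANNGAAA on either strand, was present in 27 of 39 interferon list genes with a window (69.2%), in 11 of 21 antigen presentation genes (52.4%) and in 1195 of all 27305 genes with a window (4.38%). List shares count every member with a window, tested or not. Among genes tested with a window it was present in 51 of 478 called higher (10.7%), 4 of 191 called lower (2.09%) and 390 of all 10448 (3.73%). A match is a description of the sequence, not of binding. The windows of GBP1 and PARP14, up to the base before the start site, are given 5′ to 3′ along the gene with the match in capitals; it begins 127 bases before the start site of GBP1 on the opposite strand and 29 bases before that of PARP14 on the gene's strand.
GBP1 chr1:89065209-89065458 (- strand): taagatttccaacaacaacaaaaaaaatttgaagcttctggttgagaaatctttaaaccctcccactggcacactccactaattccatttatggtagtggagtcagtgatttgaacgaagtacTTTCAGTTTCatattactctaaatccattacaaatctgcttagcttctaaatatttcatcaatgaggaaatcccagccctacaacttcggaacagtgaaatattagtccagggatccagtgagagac
PARP14 chr3:122680589-122680838 (+ strand): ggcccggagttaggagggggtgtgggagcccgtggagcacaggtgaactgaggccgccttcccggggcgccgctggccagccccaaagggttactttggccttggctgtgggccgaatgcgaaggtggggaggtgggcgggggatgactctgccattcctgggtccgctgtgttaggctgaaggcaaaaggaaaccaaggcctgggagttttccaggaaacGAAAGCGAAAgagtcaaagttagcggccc

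Genes that cut and load peptides for HLA molecules were also among those higher, with 11 of 22 tested members of the antigen presentation list called higher, 0 lower and a median of 0.93. PSMB9, an interferon-inducible subunit of the immunoproteasome, measured 80.8, 72.7 and 191.8 in untreated cells and 856.0, 724.1, 1049.8 and 1467.8 in CD44hi cells. It rose 9.14-fold (log2 3.19 ± 0.48, adjusted p = 0.000545), and its partner PSMB8 3.70-fold (1.89 ± 0.30). HLA-B, a class I heavy chain, went from 56.5, 80.4 and 110.3 to 290.9, 265.6, 335.6 and 522.4 (log2 2.04 ± 0.35, adjusted p = 0.00146), and HLA-C rose by 1.95 ± 0.34. Classical class I genes are close in sequence, so their probe sets may not be fully specific. The class II genes HLA-DRA and CD74 also rose, by 2.03 ± 0.44 and 1.81 ± 0.44, but stayed dim: HLA-DRA reached no more than 31.9 on any CD44hi array. In each of these 6 genes untreated array 3 was the highest of its group. The list held 6 calls without untreated array 1, 8 without untreated array 2 and 3 with the hybridisation covariate.

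NF-kB genes and their products showed the same direction. Of 24 tested subunits, feedback inhibitors and close targets, 12 were called higher and 0 lower (median 0.84), and of 18 chemokines and cytokines 11 were called higher and 0 lower (median 1.34). ICAM1, the adhesion molecule that binds leukocyte integrins, measured 51.8, 84.9 and 97.1 in untreated cells and 463.3, 572.8, 549.4 and 368.5 in CD44hi cells, a 6.10-fold rise (log2 2.61 ± 0.44, adjusted p = 0.00117) with no overlap. TNFAIP3, the deubiquitinase A20 that limits NF-kB signalling, went from 15.4, 33.0 and 27.5 to 63.9, 139.5, 96.1 and 100.9 (log2 1.82 ± 0.39, adjusted p = 0.00702). NFKBIZ, an inhibitor-like cofactor of NF-kB, rose 3.10-fold (1.63 ± 0.31), with CD44hi array 4 lowest at 61.3.

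Among the ligands, the stress cytokine GDF15 rose most. It measured 7.7, 23.0 and 39.3 in untreated cells and 520.7, 222.5, 330.1 and 645.8 in CD44hi cells, a 16.6-fold rise (log2 4.05 ± 0.63, adjusted p = 0.000696). IL32, an inducible cytokine, went from 15.7, 5.3 and 6.5 to 78.0, 132.4, 107.4 and 118.7 (log2 3.14 ± 0.44, adjusted p = 0.000326). The neutrophil chemokine CXCL1 was at 0.7, 0.2 and 1.1 without drug and at 23.1, 126.3, 54.0 and 32.3 in CD44hi cells (log2 3.43 ± 0.96, adjusted p = 0.0353). Chemokine levels varied between CD44hi arrays: CCL2, which attracts monocytes, spanned 115.7 on array 4 to 891.3 on array 2, against 50.5 to 57.3 in untreated cells (log2 2.44 ± 0.55, adjusted p = 0.0114). IL6 spanned 6.6 to 60.3 against at most 0.8 (2.51 ± 0.72, adjusted p = 0.0398). The calls of CXCL1 and IL6 each ended in 6 of 7 leave-one-out fits, all but that without CD44hi array 1. The chemokine list held 2 calls without untreated array 1 or 2, 5 without CD44hi array 2, 7 without CD44hi array 3 or untreated array 3 and 3 with the hybridisation covariate. The NF-kB list held 6 without untreated array 1, 9 without untreated array 2 and 2 with the covariate.

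The kB motif, the binding sequence of NF-kB dimers, was present in the windows of 15 of 25 NF-kB list genes (60%), 13 of 24 chemokine and cytokine genes (54.2%), 10 of 21 antigen presentation genes (47.6%) and 4 of 23 acute phase genes (17.4%). It was present in 13.3% of all genes with a window, in 17.2% of genes tested, and at about equal shares in genes called higher (21.1%) and lower (21.5%). The windows of HLA-B, CXCL1 and LCN2 show a match from each of 3 lists, in capitals; the matches begin 177, 79 and 175 bases before the start sites, and in HLA-B and CXCL1 overlapping matches lie on both strands.
HLA-B chr6:31357180-31357429 (- strand): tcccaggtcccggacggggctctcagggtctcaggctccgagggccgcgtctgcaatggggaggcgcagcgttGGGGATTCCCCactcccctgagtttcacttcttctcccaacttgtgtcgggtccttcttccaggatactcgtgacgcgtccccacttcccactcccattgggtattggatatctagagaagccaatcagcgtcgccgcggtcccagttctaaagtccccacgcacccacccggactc
CXCL1 chr4:73869143-73869392 (+ strand): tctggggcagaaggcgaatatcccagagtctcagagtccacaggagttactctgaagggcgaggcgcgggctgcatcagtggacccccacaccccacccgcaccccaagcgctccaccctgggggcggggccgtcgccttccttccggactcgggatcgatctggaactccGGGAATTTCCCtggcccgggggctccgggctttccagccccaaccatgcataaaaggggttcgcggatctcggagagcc
LCN2 chr9:128149203-128149452 (+ strand): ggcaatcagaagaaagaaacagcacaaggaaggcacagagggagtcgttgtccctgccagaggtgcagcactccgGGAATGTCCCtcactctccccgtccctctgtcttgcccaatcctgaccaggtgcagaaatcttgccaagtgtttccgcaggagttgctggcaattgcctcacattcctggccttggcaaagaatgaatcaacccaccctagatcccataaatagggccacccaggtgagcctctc

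**Figure D3:**
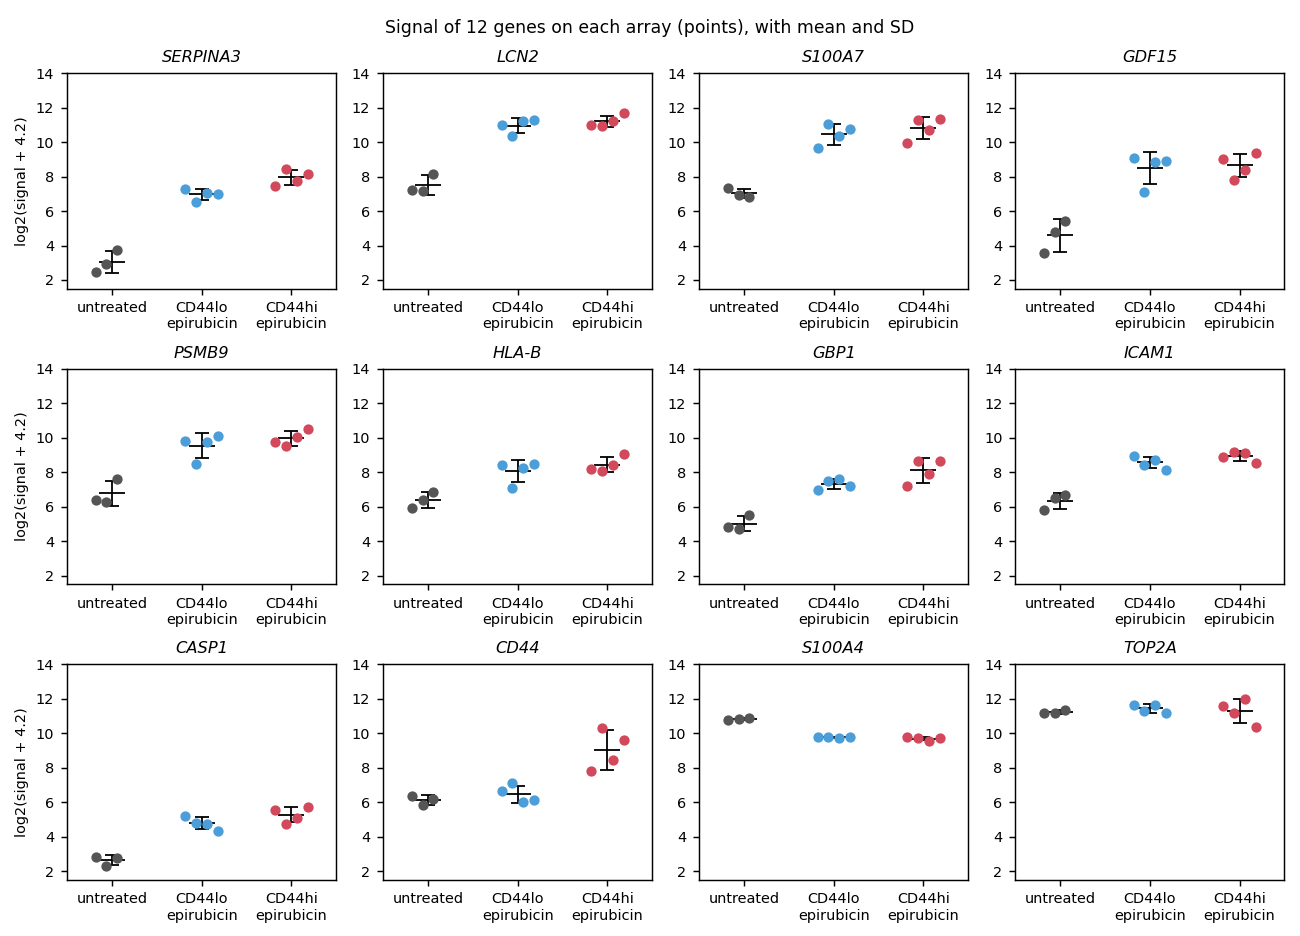
Level of 12 genes on every untreated, CD44lo and CD44hi array after epirubicin (points, log2(signal + 4.2)), with group means and SD. For SERPINA3, LCN2, S100A7, GDF15, PSMB9, HLA-B, GBP1, ICAM1 and CASP1 every CD44hi array lies above every untreated array, S100A4 lies below, CD44 is raised in CD44hi cells, and TOP2A overlaps between the groups.

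Surface molecules that immune cells read were also measured. Of 18 tested genes on the immune checkpoint and NK ligand list, 6 were called higher and 0 lower (median 0.56). NT5E, the ectonucleotidase CD73, went from 115.8, 130.3 and 267.7 to 580.3, 900.9, 641.6 and 1163.7, a 4.85-fold rise (log2 2.28 ± 0.35, adjusted p = 0.000578) that held in every alternative run. CD274, the ligand of the inhibitory receptor PD-1, measured 37.2, 29.7 and 65.3 in untreated cells and 91.5, 167.4, 121.9 and 136.4 in CD44hi cells (log2 1.5 ± 0.34, adjusted p = 0.0102). The groups did not overlap, and the call of CD274 ended without untreated array 1 or 2 and with the hybridisation covariate. PDCD1LG2, the second ligand of that receptor, was not called (1.47 ± 0.47, adjusted p = 0.0635). The list held 2 calls without untreated array 1, 1 without untreated array 2, 3 without untreated array 3 or CD44hi array 4, 4 without CD44hi array 1 and 1 with the hybridisation covariate.

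Markers of leukocytes and of stromal and endothelial cells were measured as well. Of 13 immune cell markers with a probe set of their own, 9 stayed below the filter, among them PTPRC at no more than 9.1 and CD3E at no more than 1.7 on any of the 7 arrays. The summed level of the 13 markers was 138.6 to 171.6 on untreated and 203.9 to 640.6 on CD44hi arrays. CSF1R, a myeloid receptor that was not called (1.05, adjusted p = 0.147), accounted for 116.9 to 469.3 of that sum on the CD44hi arrays and 95 to 117.4 on the untreated ones. ITGAM, an integrin chain of myeloid cells, was called higher (1.41 ± 0.35, adjusted p = 0.0200) at levels of 18.1 to 23.0. Of 15 stromal and endothelial markers 5 were tested. CDH5, the cadherin of endothelial junctions, was called higher: 31.1, 36.2 and 33.0 against 143.2, 179.5, 153.1 and 320.5 (log2 2.36 ± 0.25, adjusted p = 1.92e-05). Without CDH5 the summed level of that list was 191.2 to 217.5 on untreated and 231.8 to 298.0 on CD44hi arrays, PECAM1 was at 8.8 to 29.8 and VWF at no more than 9.7. The part of these markers in the inflammatory lists was not tested.

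Genes of the damage response and of death pathways stand beside 4.63% called higher and 1.79% lower over all genes tested. The p53 target and apoptosis lists held a larger share of rises than that. Of 23 tested p53 targets, 3 were called higher and 0 lower (median 0.13). PMAIP1, the pro-apoptotic protein NOXA, rose 3.89-fold from 68.6, 78.0 and 105.8 to 301.2, 370.6, 282.3 and 395.3 (log2 1.96 ± 0.27, adjusted p = 0.000241) and was called in every alternative run. CDKN1A, the cell cycle inhibitor p21, measured 56.0, 56.9 and 49.8 against 55.3, 293.2, 92.1 and 166.9, with overlapping groups (1.16 ± 0.43, adjusted p = 0.109), and MDM2, the ubiquitin ligase of p53, differed by -0.42 ± 0.25 (adjusted p = 0.326). CDKN1A and MDM2 were chosen after their values were seen. Of 28 genes of DNA damage signalling and repair, 0 were called (median -0.29), which says little at those shares. Of 30 apoptosis regulators, 5 were called higher and 0 lower. The inflammatory caspases CASP1 and CASP4 were among them: CASP1 went from 2.8, 0.7 and 2.6 to 42.1, 22.6, 30 and 48.1 (log2 2.65 ± 0.37, adjusted p = 0.000241) and CASP4 rose by 1.94 ± 0.28. CASP10, an initiator caspase, rose by 1.90 ± 0.40 and BMF, a BH3-only protein, by 1.66 ± 0.38. The p53 list held 1 call without untreated array 1 or 2, 2 without untreated array 3 or CD44hi array 4 and 1 with the hybridisation covariate, and the apoptosis list 3 without untreated array 2 and 3 with the covariate.

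Proliferation genes were not called as a group, and 1 array stood apart in them. Of 33 mitosis genes and 39 DNA replication genes tested, 0 were called in either direction, with medians of -0.26 and -0.45. Over all genes tested the share called was 6.42%, so 0 calls in lists of this size says little. The mean of the mitosis list relative to untreated cells was -0.06, -0.05 and 0.21 on CD44hi arrays 1 to 3 and -1.10 on array 4. The DNA replication list was at -0.61, 0.02, -0.24 and -0.94 on arrays 1 to 4. Array 4 was thus lowest on both lists, and it is the array with the highest ACTB ratio. With number 4 of both epirubicin fractions left out the medians were 0.01 for mitosis and -0.30 for replication. TOP2A, the drug's target in dividing cells, measured 2352.5, 2267.1 and 2587.6 in untreated cells and 2998.7, 2326.0, 4098.3 and 1326.5 in CD44hi cells (0.05 ± 0.57, adjusted p = 0.970, 95% interval -1.14 to 1.24). TOP2B, its paralogue that resting cells also express, differed by -0.29 ± 0.16 (adjusted p = 0.273).

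Genes that move or modify the drug gave calls in both directions. Of 17 tested genes on the list of anthracycline targets, efflux pumps and carbonyl reductases, 3 were called higher and 1 lower (median 0.05). AKR1C3 and AKR1B10, aldo-keto reductases that reduce carbonyl groups, rose by 2.71 ± 0.54 and 2.32 ± 0.37. AKR1B10 went from 44.5, 26.3 and 44.6 to 115.4, 270.4, 194.2 and 280.4, with no overlap (adjusted p = 0.000712). ABCC4, an organic anion exporter, rose from 24.0, 21 and 39.4 to 151.3, 107.1, 139.1 and 202.6 (log2 2.26 ± 0.57, adjusted p = 0.0217). ABCB1, the classical multidrug pump, stayed below the filter at 1.6 to 19.4 on the CD44hi arrays. ABCG2, another drug exporter, measured 19.3, 19.6 and 11.6 against 34.9, 144.5, 51.2 and 76.3 and was not called (1.79 ± 0.75, adjusted p = 0.157), although the groups did not overlap. GSTP1, a glutathione transferase, was the member that fell: 195.5, 149.6 and 136.9 against 57.1, 43.8, 41.3 and 29.6 (log2 -1.82 ± 0.43, adjusted p = 0.0143). The calls of ABCC4 and GSTP1 ended without untreated array 1 or 2 and with the hybridisation covariate, and that of ABCC4 also without CD44hi array 4.

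Stress, redox and lysosomal genes rose in part. On the list of NRF2 antioxidant genes 7 of 22 were called higher and 0 lower (median 0.67). SQSTM1, the autophagy receptor p62, measured 685.2, 728.2 and 836.6 in untreated cells and 2229.5, 1871.4, 2573.7 and 3756.4 in CD44hi cells (log2 1.75 ± 0.28, adjusted p = 0.000905). On the endoplasmic reticulum stress and amino acid response list 9 of 32 were called higher and 0 lower (median 0.42), led by the transcription factors ATF3 (2.10 ± 0.37) and DDIT3 (1.65 ± 0.45). ATF3 measured 73.6, 183.4 and 159.1 against 412.7, 530.2, 352.0 and 1359.2, highest on array 4. Of 30 lysosome and autophagy genes 9 were called higher and 0 lower (median 0.37), with the protease CTSS at 15.3, 13.5 and 34.2 against 145.0, 174.6, 190.6 and 159.1 (log2 2.85 ± 0.48, adjusted p = 0.00128). With the hybridisation covariate these lists held 1, 0 and 1 calls. Without untreated array 1 they held 2, 4 and 4, without untreated array 2 they held 2, 4 and 5, and without CD44hi array 4 they held 3, 3 and 5. The NRF2 list held 4 without CD44hi array 3, the stress list 5 without untreated array 3, and the lysosome list 6 without CD44hi array 1 or untreated array 3. The oxidative phosphorylation list had 0 calls in 26 genes (median -0.32), the histone list 0 in 18 (median -0.10) and the cholesterol synthesis list 1 higher in 18 (median -0.50).

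Lineage genes gave a mixed picture. Of 13 tested basal genes 3 were called higher and 0 lower (median 0.66). CAV1, the coat protein of caveolae, went from 32.9, 40.1 and 87.9 to 144.7, 455.7, 210.6 and 412.1 (log2 2.39 ± 0.37, adjusted p = 0.000652), its partner CAV2 rose by 2.00 ± 0.38, and the laminin chain LAMB3 by 1.96 ± 0.36. These calls held in every alternative run. Of 14 tested mesenchymal genes 3 were called higher and 1 lower (median 0.62). The risers were the smooth muscle actin ACTA2 (3.43 ± 0.39), the myosin light chain MYL9 (3.42 ± 0.41) and fibronectin, FN1 (2.33 ± 0.46), whose call ended without untreated array 1 and with the hybridisation covariate. S100A4, a calcium-binding protein of motile cells, fell on every array, from 1724.2, 1838.9 and 1899.3 to 863.5, 844.4, 740.5 and 838.2 (log2 -1.15 ± 0.13, adjusted p = 3.24e-05). VIM, which encodes vimentin and was chosen after its values were seen, stayed below the filter at 0.5 to 13.7 on the CD44hi arrays. Of 32 epithelial and luminal genes 4 were called higher and 2 lower (median 0.07), and 0 were called without untreated array 1, untreated array 2 or number 4 of both epirubicin fractions. Those higher were ESR1, ELF3, JUP and KRT18, and those lower were TFAP2B and AGR2. AGR2, a disulfide isomerase of luminal cells, was at 2777.9, 2463.6 and 2431.6 against 1100.3, 1404.3, 1485.8 and 794.6 (log2 -1.13 ± 0.31, adjusted p = 0.0307), a call that held in 2 of 7 leave-one-out fits.

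Of 24 stem cell associated genes 7 were called higher and 0 lower (median 0.23), CD44 and CD24 among them. CD44 is the marker the cells were sorted on, so its call adds nothing about the list. CD24 is on the list as the partner marker of CD44 in sorting, and its rise is not read here as a stem cell feature. The call of CD24 held in 2 of 7 leave-one-out fits. ALDH1A3, an aldehyde dehydrogenase, went from 530.0, 455.5 and 672.3 to 1003.4, 893.1, 1152.1 and 1166.9 (log2 0.94 ± 0.17, adjusted p = 0.00241). The transcription factor SOX9 rose from 172.0, 157.8 and 190.3 to 515.0, 452.6, 528.6 and 463.5 (1.48 ± 0.36, adjusted p = 0.0178). Neither gene's groups overlapped. The list held 2 calls without untreated array 1 or 2, 4 without CD44hi array 4 and 0 with the hybridisation covariate.

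The receptor family of the line and the low oxygen response stand beside 6.42% called in either direction over all genes tested. Of 13 tested ERBB receptors, ligands and adaptors 0 were called (median 0.15), which says little at that share. EGFR measured 569.6, 569.2 and 747.3 against 989.3, 841.9, 894.3 and 996.8 without overlap but was not called (0.57 ± 0.22, adjusted p = 0.130), and the ligand HBEGF was near the threshold at low signal (1.55, adjusted p = 0.0551). Of 29 hypoxia response genes 2 were called higher and 2 lower (median 0.06). The metabolic genes HK2 and PDK1 fell. HK2 went from 1599.2, 1525.8 and 1403.4 to 820.9, 774.2, 569.0 and 566.1 (log2 -1.16 ± 0.27). PDK1 went from 296.2, 230.3 and 242.0 to 102.7, 119.6, 125.5 and 115.7 (log2 -1.11 ± 0.17). ADM, the vasodilator adrenomedullin, rose by 1.77 ± 0.45 and the repressor BHLHE40 by 1.52 ± 0.41. Leaving out CD44hi array 4, untreated array 1 or untreated array 2 ended both calls, as did the hybridisation covariate, and that of BHLHE40 also ended without CD44hi array 2 or untreated array 3. The call of HK2 ended without untreated array 1 or 2 and with the covariate.

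Outside the lists, the largest rises among called genes with separate groups included TFPI2, an inhibitor of serine proteases in the extracellular matrix, which measured 35.9, 32.6 and 55.8 against 301.0, 1099.9, 644.2 and 1782.4 (log2 4.15 ± 0.48, adjusted p = 4.02e-05). MGP, the matrix Gla protein, rose by 3.93 ± 1.13 and TCIM, a regulator of Wnt signalling, by 3.83 ± 0.47. PSG4, a pregnancy-specific glycoprotein from a family of close copies whose probes may cross, rose by 3.76 ± 0.60. CYP24A1, which degrades vitamin D, went from 11.8, 51.0 and 34.7 to 835.9, 175.1, 362.7 and 274.8 (3.44 ± 0.75, adjusted p = 0.00869), highest on array 1. FAM30A, a long noncoding RNA, was at 319.3, 8.8, 107.2 and 107.2 on the CD44hi arrays against 1.8 to 7.9 in untreated cells. Array 2 was thus barely above untreated for FAM30A, unlike the other CD44hi arrays. MGP was called in 2 of 7 leave-one-out fits and FAM30A in 1.

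Among the falls, COL5A2, a fibrillar collagen chain, fell from 118.7, 93.3 and 117.5 to 1.5, 37.4, 27.9 and 3.3 (log2 -2.88 ± 0.64, adjusted p = 0.0102). TGFB3, a transforming growth factor beta, fell from 400.6, 421.4 and 301.2 to 98.9, 67.5, 101.5 and 61.2 (-2.15 ± 0.43, adjusted p = 0.00525). BMP7, another ligand of that family, fell from 643.5, 635.5 and 483.2 to 154.5, 184.9, 210.2 and 177.4 (-1.67 ± 0.27, adjusted p = 0.000935). Each of these separated the groups completely. The metallothionein MT1H and the near-identical MT1HL1, whose probes may not tell them apart, fell as well, with log2 differences of -1.96 ± 0.45 and -2.34 ± 0.54. The imprinted gene PEG10 was at -2.15 ± 0.41, the transcription factors TFAP2B and MYB at -2.16 ± 0.62 and -1.73 ± 0.34, the Rac activator PREX1 at -1.81 ± 0.44, SRARP, a regulator of steroid receptors, at -2.53 ± 0.70, and OTOR at -1.58. SRARP was called in 0 of 7 leave-one-out fits, TFAP2B in 1 and PREX1 in 3.

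CD44lo cells of the same drug treatment were set beside the CD44hi cells to see which changes the sort separates. Against the same 3 untreated arrays, which both comparisons share, 292 genes were called higher in CD44lo cells (2.26%) and 73 lower (0.565%). The interferon list had 16 calls in CD44lo and 19 in CD44hi cells, the acute phase list 13 and 16, the antigen presentation list 7 and 11, the NF-kB list 7 and 12, and the chemokine list 4 and 11, all higher. LCN2 differed from untreated by 3.43 in CD44lo and 3.68 in CD44hi cells, PSMB9 by 2.78 and 3.19, GDF15 by 3.89 and 4.05, and S100A4 by -1.06 and -1.15. Tested directly between the sorted fractions, LCN2 was higher in CD44hi cells by 0.25 (95% interval -0.82 to 1.32), PSMB9 by 0.42 (-0.51 to 1.34) and GDF15 by 0.16 (-1.06 to 1.38), none of them called. The median difference between the fractions was 0.12 for the interferon list, 0.14 for the NF-kB list and 0.15 for the acute phase list. It was 0.2 for the chemokine list and 0.22 for the antigen presentation list.

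Between CD44hi and CD44lo cells 3 genes were called higher (0.0232%) and 0 lower by limma, while 312 had an unadjusted p under 0.05. ACTA2 measured 22, 23.2, 20.8 and 33.6 on CD44lo arrays 1 to 4 and 78.3, 336.8, 118.2 and 377.5 on the CD44hi arrays. It was 2.73 ± 0.36 higher (adjusted p = 0.00287), against 11.1, 11.6 and 18.7 in untreated cells. The skeletal muscle actin ACTA1 measured 18.2, 10.8, 6.9 and 15.2 in CD44lo and 49.8, 231.7, 50.1 and 157.7 in CD44hi cells (2.65, adjusted p = 0.0264). The third gene was ACTA2-AS1, which lies antisense to ACTA2 (1.68, adjusted p = 0.0498); it was not called with the replicate block described next. The actins ACTA1 and ACTA2 are close in sequence, and their probe sets may share signal. ACTA2 was thus at most 33.6 on any CD44lo array and at least 78.3 on any CD44hi array.

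Arrays of equal number were taken as pairs in this comparison, which was inferred from these data and is not stated in the labels. With the number as a block 16 genes were called higher in CD44hi cells (0.124%) and 2 lower (0.0155%). That fit used only the CD44hi and CD44lo arrays after epirubicin. The 18 genes are named in full. Those higher include the contractile and cytoskeletal genes ACTA2 (2.73 ± 0.27), ACTA1 (2.65 ± 0.35), MYL9 (1.97 ± 0.25) and the tropomyosin TPM1 (0.55 ± 0.09). Also among the higher genes are the sort marker CD44 (2.57 ± 0.27, adjusted p = 0.00304) and the surface proteins HEG1, NT5E and OLR1. The secreted or matrix proteins IGFBP3 (2.07 ± 0.29), IGFBP7 (1.43 ± 0.22), TFPI2 (1.34 ± 0.21) and FN1 (1.10 ± 0.19) belong there too. The rest are the cell cycle inhibitor CDKN2B (1.25 ± 0.21), BASP1, NEURL3 and PLAC8. The immediate early gene FOS (-0.84 ± 0.13) and the nuclear scaffold factor SAFB (-0.67 ± 0.11) were lower. In all 18 genes the 4 pairs moved in one direction, which a call under the block nearly requires, so it adds no support. For CD44 the difference within a pair ranged from 1.15 to 3.48 and for ACTA2 from 1.65 to 3.64. IGFBP3, which binds insulin-like growth factors, measured 35.3, 38.5, 72.3 and 9.6 in CD44lo and 105.1, 191.2, 167.0 and 147.6 in CD44hi cells.

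**Figure D4:**
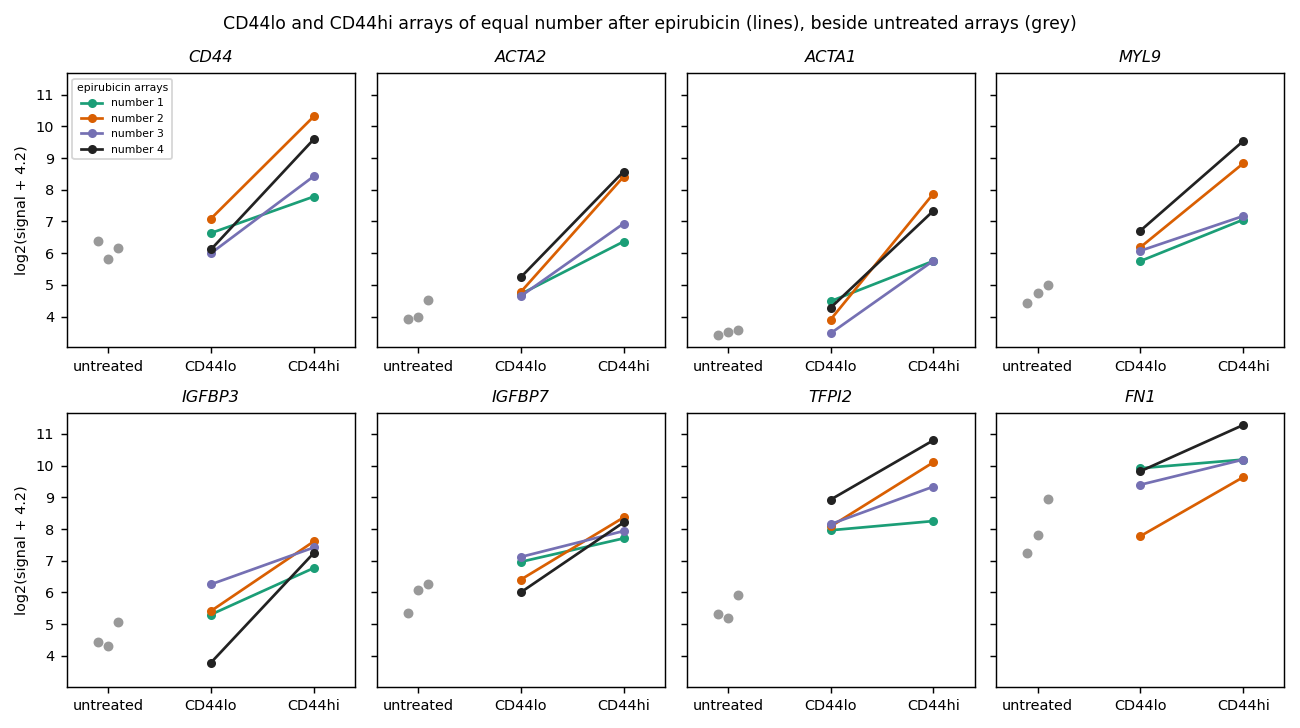
Level of 8 genes (log2(signal + 4.2)) on CD44lo and CD44hi arrays after epirubicin, joined by replicate number, with the 3 untreated arrays in grey. The 8 genes were picked from those called higher with the block, so that every line rises by selection. Within-pair differences run from 0.27 for FN1 and 0.29 for TFPI2 to 3.98 for ACTA1.

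The serum response sequence CArG, known for muscle actin genes, was searched in the same windows because both alpha actins lead this comparison. It was present in 1.6% of all genes with a window and in 2 of 13 genes called higher under the block with a window, ACTA1 and PLAC8. The search took only exact matches, with CC and GG around A or T bases, and found none in either window of ACTA2. The ACTA2 window at chr10:88952774-88953023 holds ccctatatgg and ccttgtttgg, which each differ from that form by a single base. The window of ACTA1 holds the match, which reads on both strands, 97 bases before the start site.
ACTA1 chr1:229434095-229434344 (- strand): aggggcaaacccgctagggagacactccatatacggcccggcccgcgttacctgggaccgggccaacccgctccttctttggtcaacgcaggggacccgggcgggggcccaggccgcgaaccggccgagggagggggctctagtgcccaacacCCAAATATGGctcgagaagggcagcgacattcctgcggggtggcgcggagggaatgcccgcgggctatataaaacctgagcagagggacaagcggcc

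CD44hi cells after 7 days in 1% oxygen served as the other CD44hi population. Here 1320 genes were higher in the epirubicin CD44hi cells (10.2%) and 1034 lower (8%). The treatments differ in length, so that agent and duration cannot be told apart. The mitosis list had the largest median difference of the 26 lists: 32 of 33 genes were higher after epirubicin and 0 lower (median 2.48). Relative to untreated cells its mean was -3.67, -1.93, -2.83 and -2.36 on the hypoxia arrays, all below CD44hi array 4 of the epirubicin group. PTTG1, which encodes the mitotic regulator securin, measured 1107.7, 634.2, 1119.9 and 358.2 after epirubicin and 11.9, 85.3, 43.0 and 98.9 after hypoxia (3.83 ± 0.58, adjusted p = 0.000116). Of 39 DNA replication genes 24 were higher and 0 lower (median 1.11).

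The inflammatory lists differed in how they compared between drug and hypoxia. On the acute phase list 12 of 23 were higher and 1 lower (median 1.06), and on the antigen presentation list 10 of 22 and 1 (0.67). The interferon list had 11 of 37 higher and 3 lower (0.39), and the NF-kB list 3 of 24 higher and 2 lower (0.00). The chemokine and cytokine list had 2 of 18 higher and 1 lower (-0.31). PIGR, the epithelial receptor that carries antibodies into secretions, had the largest difference among genes higher after the drug. It measured 4082.9, 1829.4, 3410.7 and 3548.4 after epirubicin and 52.2, 438.1, 131.9 and 182.0 after hypoxia (4.28 ± 0.52, adjusted p = 1.22e-05), with 192.1, 257.6 and 790.6 in untreated cells. S100A7 was higher by 4.12 ± 0.67 and GDF15 by 3.96 ± 0.59. GBP1, in contrast, measured 361.4, 370.0, 394.1 and 510.0 after hypoxia, and its difference of -0.58 ± 0.30 was not called (adjusted p = 0.201).

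Lower in the epirubicin CD44hi cells were 24 of 29 hypoxia response genes with 0 higher (median -1.53), 10 of 13 basal genes (median -1.24) and 11 of 14 mesenchymal genes (median -1.82), both with 0 higher. EGLN3, an oxygen-sensing prolyl hydroxylase, measured 72.2, 136.8, 97.4 and 66.0 after epirubicin and 1621.1, 954.2, 1897.6 and 1326.6 after hypoxia (-3.91 ± 0.30, adjusted p = 1.13e-07). The adenylate kinase AK4 and the enolase ENO2 were lower, with log2 differences of -4.25 ± 0.60 and -3.92 ± 0.70. Of the genes that separated CD44hi from CD44lo cells after epirubicin, ACTA1 measured 3001.1, 1791.0, 1994.6 and 2242.5 after hypoxia and IGFBP3 2960.0, 1901.5, 2295.7 and 2391.1. The log2 differences of the epirubicin CD44hi cells from them were -4.43 ± 0.43 and -3.94 ± 0.39. CD44 itself was not called (-0.87 ± 0.65, adjusted p = 0.388), with 486.7 to 1658.3 after hypoxia, and the ranges overlapped.

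**Figure D5:**
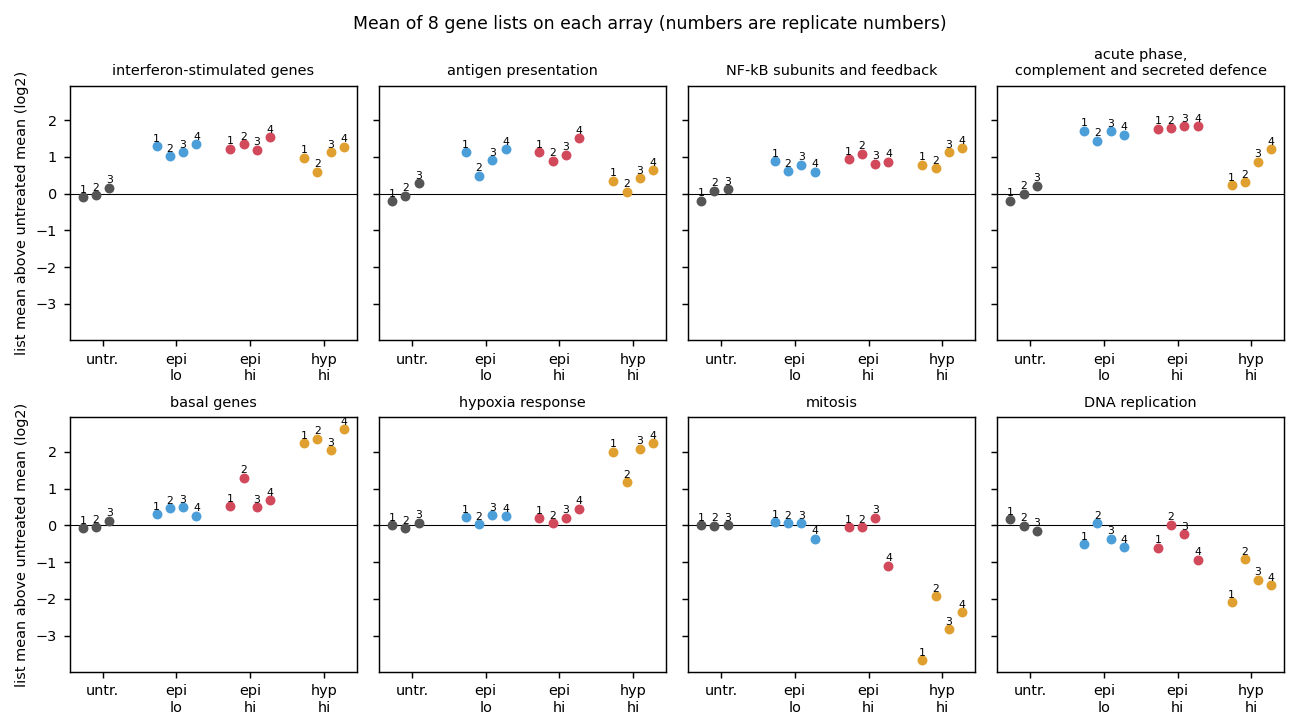
Mean log2 difference from the untreated mean over the tested genes of 8 lists, one point per array with its replicate number, for untreated cells, CD44lo and CD44hi cells after epirubicin (epi) and CD44hi cells after hypoxia (hyp). The interferon, acute phase, antigen presentation and NF-kB lists lie above all untreated arrays on every epirubicin array, mitosis falls to -1.10 on CD44hi array 4 and to -3.67 on a hypoxia array, and the hypoxia list stays at 0.05 to 0.45 on the CD44hi epirubicin arrays.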

How the data were processed

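Gene expression was measured on 19 Affymetrix arrays with 54675 probe sets. The authors deposited linear signal intensities; the submitters' processing notes name MAS5, with version and settings not given in the sources used here, and the values show that every array was scaled to a trimmed mean of 100. No sequencing depth applies, and the number of arrays limits the precision.

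Probe sets that name 1 gene (41091) were kept, and the brightest stood for each of 19775 genes, of which 12925 reached a signal of 16.9 (the median of the table) on at least 3 arrays. The log2 of signal + 4.2 (the 25th percentile) was fitted with limma 3.58.1 in R 4.3.3 over all 19 arrays as 5 group means, with a variance trend and Benjamini-Hochberg adjustment. The fit was tested on simulated data. Fits with the replicate number as a block used the arrays of the compared groups only.

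CD44lo and CD44hi arrays of equal number after epirubicin were taken as pairs: same-numbered deviations correlated at 0.375, 0.546, 0.114 and 0.461. Those of unequal number correlated at -0.276 to 0.14, so that number 3 did not stand out. The labels do not state the pairing. Named genes are CD44, CD24 and ERBB2, up to 6 called genes of each list with at least 3 calls, the 12 largest rises and falls, the 8 largest differences each way between the sorted groups, and members of the immune, stromal, checkpoint, hypoxia, anthracycline and ERBB lists. Genes and lists were chosen with earlier results of these data known. Alternatives changed the offset, filter, normalization, probe set rule, variance model, arrays and covariates.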

Additional observations from a re-analysis of the deposited data

Results flagged for a closer look

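Of 104 genes examined for a single array far from its group, 4 had such an array among the 4 CD44hi arrays after epirubicin, by Dixon's criterion at a critical value of 0.829, which chance exceeds in about 1 in 20 groups. That rate holds for unselected genes, and nearly all of these were picked as called, so the count of 4 cannot be judged against it. The array was number 4 in each. The interferon-stimulated gene IFI44 measured 44.3 on array 4 and 15.8 to 17.5 on the others. JUP, the junction protein plakoglobin, measured 4091.9 against 2737.1 to 2835.0. The autophagy gene MAP1LC3B measured 475.0 against 550.5 to 563.4. The transcription factor MYB measured 26.1 against 57.0 to 64.1. Array 4 also had the highest ACTB 3′ to 5′ ratio (1.85) and the highest hybridisation controls (11.04), and the part of these in the 4 values was not tested.

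Between the CD44hi and CD44lo fractions after epirubicin, limma's direct test separated ACTA2 (log2 difference 2.73), ACTA1 (2.65) and ACTA2-AS1 (1.68). ACTA2-AS1 was not called with the replicate block, which takes arrays of equal number as pairs.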

How the results depend on the processing

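The count of genes called between CD44hi survivors and untreated cells (830) was 1356 when only the compared groups were fitted, 104 with the hybridisation controls as a covariate (98 of them among the 830) and 465 without the epirubicin arrays numbered 4. It ranged from 218 (without untreated array 1) to 898 (without CD44hi array 2) when single arrays were left out. Of 103 named genes called, 50 were called in every leave-one-out fit, 21 in every alternative and 26 with the covariate. CD44 was lowest, at 1.7, with the mean of all probe sets and was still called there. It was 2.99 with the covariate and 2.72 without the arrays numbered 4, neither called, and 2.49 to 3.33 when single arrays were left out. CD24 was no longer called at 0.67 (no filter, no variance trend, compared groups only), 0.58 (mean of all probe sets), 0.11 (quantile normalization), 0.16 (covariate) and 0.61 (without the arrays numbered 4), and ranged from 0.56 to 0.87 over single omissions, of which 5 of 7 ended its call. ERBB2, at 0.00, went to -0.40 (quantile), -0.22 (mean of all probe sets), -0.25 (covariate) and -0.08 (without the arrays numbered 4), and from -0.08 to 0.13 over single omissions, and was called in none of these. Between CD44hi and CD44lo cells the count of 3 became 1 with an offset of 16, with the covariate and without the arrays numbered 4, 0 by limma on the compared groups only (311 at an unadjusted p under 0.05), and 1 to 4 over single omissions. The cause of these changes was not tested. Counts against hypoxia stayed within 1684 to 2438. Signal near the offset limits what can be said of dim genes, whose differences are understated.

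With the replicate number as a block, 1178 genes were called between CD44hi survivors and untreated cells, 684 of them among the 830, and ERBB2 was at -0.08. That fit used the compared groups only, so its count differs from 830 by more than the block. CD44hi array 4 has no untreated array of its number and adds nothing to the differences there. CD44 was at 2.72, as in the fit without that array. Same-numbered arrays of these groups did not deviate together (correlations of -0.254, 0.078 and 0.068), so that they share only a number. Between CD44hi and CD44lo cells, where the pairing was inferred from the data, the block gave 18 calls, 2 of them among the 3 without it.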
